A study of Rattus norvegicus with 36 samples.

Results

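The genes encoding collagen hydroxylation, processing and cross-linking enzymes comprised 10 genes (P4ha1, P4ha3, Plod1, Plod2, P3h1, Pcolce, Bmp1, Lox, Loxl1 and Loxl2), chosen by name. They were read by 13 probe sets carrying 1 of these symbols, of 31042 probe sets and 14217 genes in all. Lox, Loxl2 and Bmp1 each had 2 probe sets, and the others had 1. Gene expression was measured on 36 Affymetrix rat genome arrays, 23 of vocal fold (VF) mucosa and 13 of cultured VF fibroblasts, from Fischer 344 male rats that were 120 days old at the start. Mucosa arrays held the microdissected VF mucosae of 4 pooled rats each, harvested 3, 14 or 60 days post-injury (PI) after surgical stripping of both folds, at ages of 123, 134 and 180 days, or from uninjured rats of the same ages. The labels give 5 PI and 3 control arrays at 3 days, 5 and 3 at 14 days, and 5 and 2 at 60 days, whereas the methods describe 4 PI arrays and 3 control arrays at 60 days. The labels were followed, and 60-day values rest on 2 control arrays. Whether an array labelled 60-day PI is a control was not tested, and every comparison with the 60-day mucosa groups carries this limit. Arrays of a group came from separate rats. The fibroblasts were primary explant cultures of 1 rat each, harvested at passage 1 and 80% confluence. They comprised 3 naive cultures from uninjured rats of 180 days, 4 scar cultures from rats 60 days PI, and scar cultures exposed for 1 h to 50 nM liposome-delivered siRNA against gp46 (3 arrays) or scramble siRNA (3 arrays) and kept for another 24 h. gp46 is the collagen chaperone encoded by Serpinh1.

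Collagen chains are modified in the endoplasmic reticulum before they fold. Prolyl 4-hydroxylase subunits (P4ha1, P4ha3) hydroxylate prolines that stabilize the triple helix, P3h1 modifies single prolines, and the lysyl hydroxylases Plod1 and Plod2 hydroxylate lysines of the helix and of the telopeptides, respectively. After secretion Bmp1 removes the C-propeptide with Pcolce as its enhancer, and lysyl oxidases (Lox, Loxl1, Loxl2) oxidize lysines so that fibrils become covalently cross-linked. Telopeptide hydroxylation by Plod2 leads to cross-links that resist breakdown and is known from fibrotic scars. Stiffness and vibration of the VF lamina propria depend on this fibrillar matrix.

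The upstream sequences of the paralog pairs Plod2 and Plod1 and P4ha1 and P4ha3 are shown because the members of each pair moved by different amounts after injury. Each is the 250 bases 5′ of a RefSeq start (build GRCr8, gene strand). RefSeq entries for this window were found for 7 of the 10 genes, and those for Lox, Loxl2 and Bmp1 were not analysed here. Capitals mark ACGTG or GCGTG on either strand, the core to which hypoxia-inducible factors are known to bind; the reverse complements read CACGT and CACGC.
Plod2, chr8:101964068-101964317, plus strand: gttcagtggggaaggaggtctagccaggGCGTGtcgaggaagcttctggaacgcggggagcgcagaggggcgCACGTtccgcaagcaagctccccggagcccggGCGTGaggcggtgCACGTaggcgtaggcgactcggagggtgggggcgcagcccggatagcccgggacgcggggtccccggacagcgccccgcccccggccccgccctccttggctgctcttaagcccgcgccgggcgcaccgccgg
Plod1, chr5:163650738-163650987, minus strand: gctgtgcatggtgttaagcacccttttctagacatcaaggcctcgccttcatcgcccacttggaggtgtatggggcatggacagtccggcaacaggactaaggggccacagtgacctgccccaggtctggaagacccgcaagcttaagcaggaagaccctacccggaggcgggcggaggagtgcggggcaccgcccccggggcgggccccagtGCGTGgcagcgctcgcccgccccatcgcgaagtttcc
P4ha1, chr20:27844796-27845045, plus strand: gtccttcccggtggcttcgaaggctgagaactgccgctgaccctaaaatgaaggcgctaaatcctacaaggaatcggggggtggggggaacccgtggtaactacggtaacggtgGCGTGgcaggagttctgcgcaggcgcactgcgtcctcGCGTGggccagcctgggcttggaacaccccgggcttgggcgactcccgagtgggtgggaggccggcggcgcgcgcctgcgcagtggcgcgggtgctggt
P4ha3, chr1:164040614-164040863, plus strand: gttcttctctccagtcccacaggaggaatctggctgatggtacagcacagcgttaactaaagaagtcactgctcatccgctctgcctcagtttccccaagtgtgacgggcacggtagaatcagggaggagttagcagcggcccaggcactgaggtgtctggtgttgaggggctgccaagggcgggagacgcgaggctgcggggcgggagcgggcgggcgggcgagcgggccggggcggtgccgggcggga
The P4ha1 window lies inside the annotated span of the gene (chr20:27784696-27895785), and the end of the P4ha3 window runs into that of P4ha3, which begins at chr1:164040852. Matches numbered 4 for Plod2, 2 for P4ha1, 1 for Plod1 and 0 for P4ha3. The other 3 windows held 2 matches (P3h1), 1 (Pcolce) and 0 (Loxl1). Of 33469 windows of this length, 36.7% held either motif, so a single match is common. The share of windows with 4 matches was not counted. The Plod2 window was 74.8% G and C, and that of Plod1 was 65.6%. These matches are a description of the letters only.

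The values are the authors' log2 signals after RMA. An array of tissue measures the mean over its cells, so that more cells of a type and more RNA per cell cannot be told apart. Lists of marker genes showed mixed tissue. Epithelial markers (5 genes) had a mean signal of 12.54 to 13.27 in single mucosa arrays, and skeletal muscle markers (4 genes) were at 12.35 to 13.92. In cultures, epithelial markers were at 5.42 to 5.91 and macrophage markers (5 genes) at 4.56 to 5.07, while fibroblast markers (5 genes) were at 12.77 to 13.41. Cultures thus carried the fibroblast markers of their label. They were not free of muscle transcripts. Skeletal muscle markers reached 9.52 in 1 scar culture. Muscle regeneration markers (4 genes) were at 5.71 to 11.71 in scar and 5.94 to 9.82 in naive cultures, and the highest 3-day PI mucosa array was at 10.94. In scramble and gp46 siRNA cultures they reached 7.71 and 7.45. The part of these transcripts in the culture comparisons was not tested. A trio of mucosa arrays, replicate 5 of the 3-day PI group, replicate 4 of the 60-day PI group and the third 14-day control, deviated from their groups together (Pearson's r of the deviations 0.45 to 0.60). Leaving out all 3 changed 1 call among the injury effects, that of Loxl1 at 3 days, described with that gene.

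At 3 days PI, 9 of the 10 genes were higher in injured than in control mucosa (limma, Benjamini-Hochberg adjusted p under 0.05 over 14217 genes). Across the array 26.5% of genes were called at this time and 14.5% were higher. The median log2 difference of the 10 genes was 1.49, and that of all genes was 0.01. Every PI array exceeded every control array for each of the 10, whereas 17.6% of all genes showed such a separation upward. Loxl1 was not called. The genes fell into a group that rose by 2.43 to 3.02 log2 units (Plod2, Loxl2, Lox), a group that rose by 1.35 to 1.74 (P4ha3, Pcolce, P3h1) and a group with differences of 0.36 to 0.62 (Bmp1, Plod1, P4ha1, Loxl1). These sizes are those of the probe set that represents each gene. By their other probe sets Bmp1 rose by 1.64, Lox by 3.09 and Loxl2 by 2.72.

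**Figure D1:**
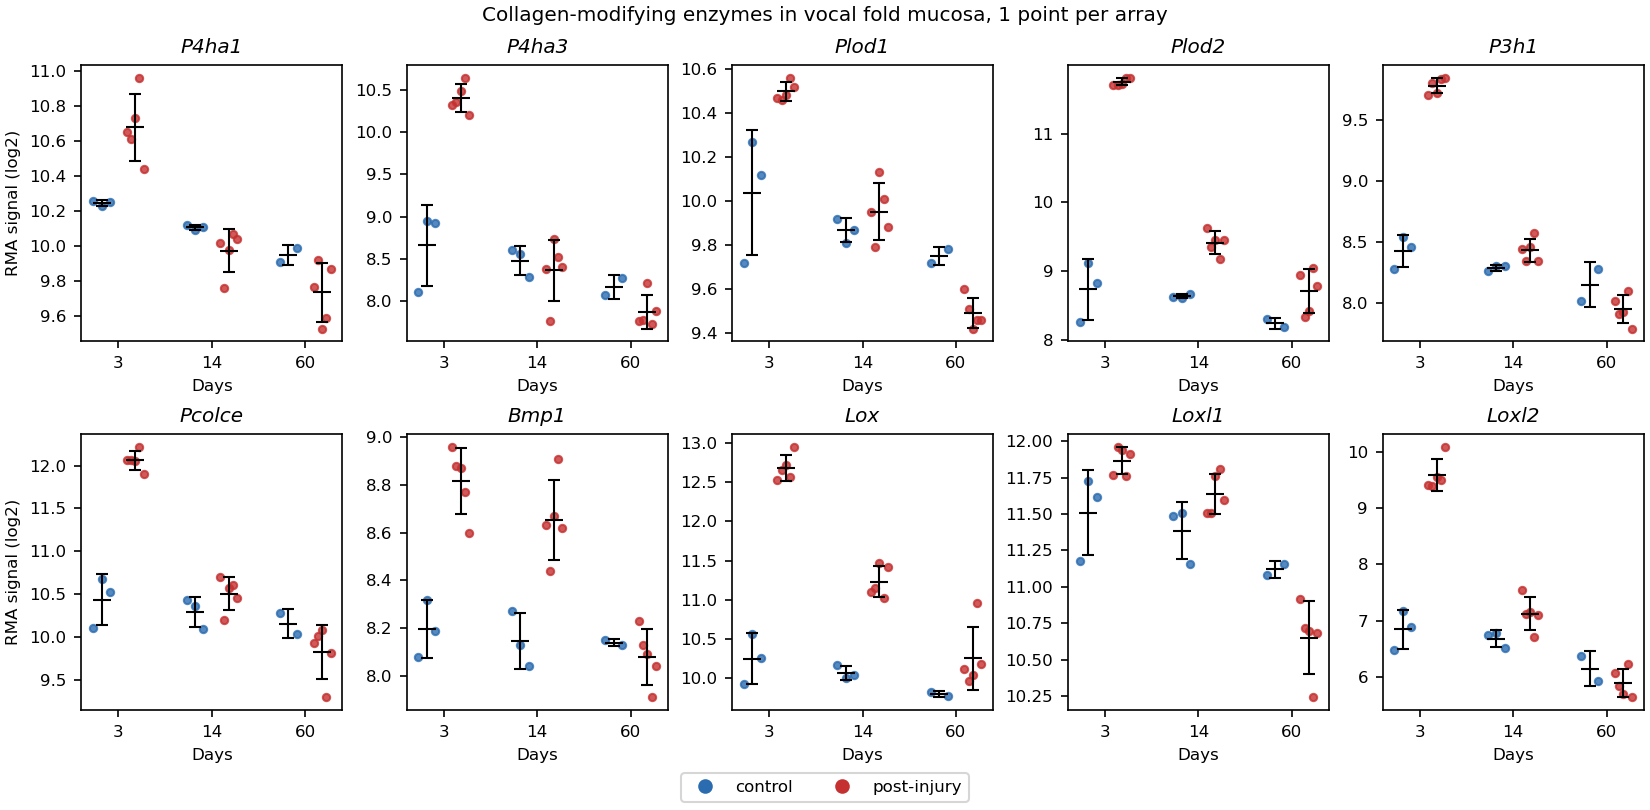
Log2 RMA signal of the 10 genes in VF mucosa at 3, 14 and 60 days, in control (blue) and PI (red) arrays; points are arrays of 4 pooled rats, and black lines give the mean and SD. At 3 days all PI points lie above all control points in each panel, and for Plod2 the PI points sit between 11.71 and 11.81 against 8.26 to 9.12 in controls; the vertical scale differs between panels.

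Among the hydroxylases, Plod2 showed the largest injury effect of the 10 by the probe sets that represent the genes. The other Lox probe set rose by slightly more (3.09). The 5 PI arrays at 3 days read 11.71, 11.71, 11.72, 11.81 and 11.81 (log2 signal), and the 3 control arrays read 8.26, 9.12 and 8.83. The PI arrays thus lay within 0.1 of each other while the controls were spread over almost a full log2 unit. The difference was 3.02 (SE 0.16), an 8.09-fold rise (adjusted p = 3.77e-11). Its paralog Plod1 read 10.47, 10.46, 10.48, 10.56 and 10.52 in PI arrays and 9.72, 10.27 and 10.12 in controls. The groups of Plod1 were also separate, but by a smaller distance of 0.46 (SE 0.10, adjusted p = 0.0010), and of 0.30 without 3-day control replicate 1. In the difference between the paralogs of the same array, the injury effect of Plod2 exceeded that of Plod1 by 2.56 (SE 0.09).

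P4ha1 and P4ha3 encode alternative catalytic subunits of the same enzyme. P4ha3 read 10.32, 10.35, 10.48, 10.64 and 10.20 in 3-day PI arrays and 8.11, 8.95 and 8.92 in controls, a rise of 1.74 (SE 0.19, adjusted p = 8.57e-07). P4ha1 read 10.65, 10.61, 10.73, 10.96 and 10.44 in PI arrays and 10.26, 10.23 and 10.25 in controls. Controls of P4ha1 agreed closely, and its rise was 0.43 (SE 0.10, adjusted p = 0.0039). The injury effect of P4ha3 exceeded that of P4ha1 by 1.31 (SE 0.28). P3h1, which acts in a complex with Crtap and Ppib, read 9.70, 9.80, 9.72, 9.83 and 9.84 in PI arrays against 8.28, 8.54 and 8.46 in controls. This rise of 1.35 (SE 0.08, adjusted p = 2.23e-10) had the smallest SE among the 10 genes.

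The protease Bmp1 and its enhancer Pcolce both rose. Pcolce read 12.07, 12.06, 12.05, 12.22 and 11.90 in PI arrays and 10.11, 10.68 and 10.53 in controls, with a difference of 1.62 (SE 0.16, adjusted p = 1.29e-07). The probe set that represents Bmp1 (1389048_at) read 8.96, 8.88, 8.87, 8.77 and 8.60 against 8.08, 8.32 and 8.19. Its rise was 0.62 (SE 0.10, adjusted p = 8.87e-05), 1.54-fold. The other Bmp1 probe set (1371127_at) gave another size at this time. It read 9.61, 9.53, 9.46, 9.49 and 9.42 in PI arrays and 7.86, 7.84 and 7.88 in controls, a rise of 1.64 (SE 0.10, adjusted p = 1.34e-10 over 31042 probe sets, of which 23% were called). The gap between both probe sets changed by 1.03 (SE 0.08) between control and PI arrays at 3 days, and the PI and control values of this gap did not overlap (exact permutation p = 0.0357, the smallest that 5 against 3 arrays allow; adjusted p = 0.16 over 9 such comparisons). Bmp1 thus rose at 3 days by either probe set, to a different size.

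The lysyl oxidases had injury effects of different sizes. Loxl2 read 9.42, 9.39, 9.56, 9.51 and 10.10 in PI arrays and 6.48, 7.17 and 6.89 in controls. Its rise of 2.75 (SE 0.19, adjusted p = 1.14e-09) was repeated by its other probe set, at 2.72 (SE 0.19). Lox read 12.53, 12.65, 12.72, 12.56 and 12.95 against 9.93, 10.57 and 10.26. The Lox rise was 2.43 (SE 0.18, adjusted p = 2.98e-09), and 3.09 (SE 0.21) by its other probe set. Both Lox probe sets put every PI array above every control. Loxl1, a family member tied to elastic fibers, read 11.77, 11.96, 11.94, 11.76 and 11.91 in PI arrays and 11.18, 11.73 and 11.62 in controls. Although these groups did not overlap, the difference of 0.36 (SE 0.14, 95% confidence interval 0.07 to 0.64) missed the threshold (adjusted p = 0.0571). Without 3-day control replicate 2 Loxl1 was called, with a difference of 0.47, without control replicate 1 the difference was 0.19 and not called, and without the trio that deviated together it was called at 0.35. In arrays of both groups the injury effect of Lox exceeded that of Loxl1 by 2.07 (SE 0.08) and that of Loxl2 exceeded it by 2.39 (SE 0.14). These 4 paralog differences were picked after the values were seen and are given as descriptions.

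**Figure D2:**
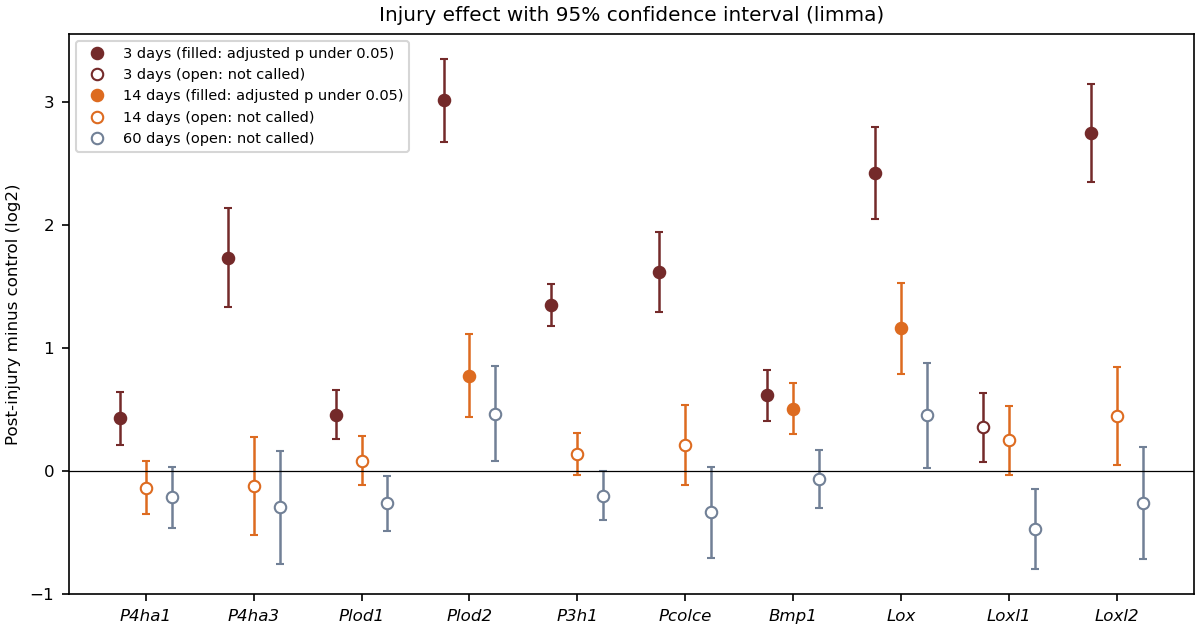
Difference between PI and control mucosa (log2) for each gene at 3, 14 and 60 days; points are limma estimates, bars are 95% confidence intervals, filled points had an adjusted p under 0.05 and open points did not. Effects at 3 days range from 0.36 (Loxl1) to 3.02 (Plod2), and no point is filled at 60 days.

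At 14 days PI, 3 of the 10 genes were higher than in control, and across the array 3.07% of genes were called and 2.11% were higher. They were Lox, Plod2 and Bmp1, that is, a cross-linking enzyme, the telopeptide lysyl hydroxylase and the C-proteinase. The median difference of the 10 genes was 0.23. For Lox, PI arrays read 11.10, 11.15, 11.47, 11.02 and 11.42 and controls 10.17, 10.00 and 10.04, a difference of 1.16 (SE 0.18, adjusted p = 0.00069). Plod2 read 9.63, 9.35, 9.46, 9.18 and 9.46 in PI arrays and 8.63, 8.61 and 8.67 in controls, a difference of 0.78 (SE 0.16, adjusted p = 0.0088). Bmp1 read 8.63, 8.44, 8.67, 8.91 and 8.62 against 8.27, 8.13 and 8.04. PI and control arrays were apart in each of the 3. The Bmp1 difference was 0.51 (SE 0.10, adjusted p = 0.0059), and 0.52 (SE 0.10) by the other probe set. It missed the threshold without 14-day control replicate 3 (0.46, adjusted p = 0.0563). Among the marker lists at this time, muscle regeneration genes were higher in 4 of 4 (1.16 to 3.84), endothelial genes in 1 of 3 (Pecam1, 0.68) and fibroblast genes in 1 of 5 (Col1a1), and none of the others was called. The part of these genes in the 14-day values was not tested.

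The other 7 genes were not called at 14 days. Loxl2 had a difference of 0.45 (SE 0.19, adjusted p = 0.297), with PI arrays at 6.71 to 7.55 and controls at 6.51 to 6.78, which overlapped. Loxl1 differed by 0.25, Pcolce by 0.21, P3h1 by 0.14 and Plod1 by 0.09. Values for P4ha3 and P4ha1 were -0.12 and -0.13. The PI arrays of P4ha1 lay at 9.76 to 10.07, all below its controls at 10.09 to 10.12, and P3h1 had its PI arrays at 8.34 to 8.57, all above its controls at 8.26 to 8.30. Groups apart in the same direction occurred for 6.08% (lower) and 7.95% (higher) of genes.

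Comparison of the injury effects themselves showed that 7 of the 10 genes had a larger effect at 3 than at 14 days (7.9% of genes called, 5.37% in this direction). The decline was 2.30 for Loxl2 (SE 0.27, adjusted p = 1.61e-05), 2.24 for Plod2, 1.86 for P4ha3, 1.41 for Pcolce, 1.27 for Lox, 1.21 for P3h1 and 0.56 for P4ha1 (adjusted p = 0.0199). For Plod1 (0.38, adjusted p = 0.0988), Loxl1 (0.11, adjusted p = 0.815) and Bmp1 (0.11, 95% confidence interval -0.18 to 0.40) no difference between times was called. Plod1 passed the threshold with array weights (0.27, adjusted p = 0.026) and without 3-day control replicate 2 (0.49, adjusted p = 0.0204). By its other probe set, Bmp1 declined by 1.13 (SE 0.13, adjusted p = 2.25e-05 over probe sets, of which 6.58% were called), so that a decline of Bmp1 was called by 1 of its 2 probe sets, and also by their mean (0.62, adjusted p = 0.000434). The effect at 3 days exceeded that at 60 days in 10 of 10 genes (13.4% of genes called, 8.64% in this direction), by 0.64 (P4ha1) to 3.00 (Loxl2). Between 14 and 60 days 0 of 10 genes were called by limma (0.0774% of genes called), and the differences ran from 0.08 to 0.72. An unadjusted p under 0.05 was reached by 7 of the 10, a threshold at which the share of all genes was not counted.

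At 60 days PI, limma called 0 of the 10 genes (0.0492% of all genes called, 7 in number), and the lognormal-normal model called 0 (0.394% of all genes called). An unadjusted p under 0.05 was reached by 5 of the 10, a threshold at which the share of all genes was not counted. The genes did not share a direction. Lox and Plod2 were above control in each PI array. Lox read 10.12, 9.97, 10.04, 10.96 and 10.18 in PI arrays and 9.83 and 9.77 in controls, with a difference of 0.45 (SE 0.21, adjusted p = 0.512) that was 0.28 without PI replicate 4. Plod2 read 8.95, 8.34, 8.43, 9.05 and 8.79 against 8.30 and 8.19, with a difference of 0.47 (SE 0.18, adjusted p = 0.431). Loxl1 lay below both controls, at 10.92, 10.72, 10.70, 10.24 and 10.68 against 11.08 and 11.16. Its difference was -0.47 (SE 0.16, adjusted p = 0.315), and that of Plod1 was -0.26 (SE 0.11, adjusted p = 0.463), also without overlap. Groups apart upward were seen for 4.4% and downward for 7.93% of genes. The remaining 6 genes lay between -0.33 (Pcolce) and -0.06 (Bmp1) and overlapped with control. By its other probe set Loxl2 was at -0.42 (SE 0.21), with each PI array below both controls. With the 8 control arrays of 3 ages pooled, 7 of the 10 genes were called lower at 60 days PI (5.24% of genes), Loxl2 by -0.72, Loxl1 by -0.71, P4ha3 by -0.60, Pcolce by -0.49, Plod1 by -0.41, P4ha1 by -0.38 and P3h1 by -0.36. Pooling sets the 180-day PI rats against controls that were mostly younger, and age and injury cannot be told apart in these values. Macrophage markers were at -0.69 to -1.23 at 60 days, 0 of 5 called and 5 with an unadjusted p under 0.05, and their part in these values was not tested.

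Along the PI groups alone, the moderated F test called 10 of 10 genes (38.4% of all genes), and the mean levels of the 3 times fell from 3 to 14 to 60 days in each. The largest adjusted p was 2.09e-06 (Bmp1). Over the control groups the F test called 0 of 10 genes (0.0141% of all genes called), and 2 of the 10 had an unadjusted p under 0.05. The control means ran in the same falling order in each gene, so this order was not particular to injured mucosa. They moved little for Bmp1 (8.20, 8.14 and 8.14 in the 3-, 14- and 60-day groups) and by more for Plod2 (8.74, 8.64 and 8.24) and Loxl2 (6.85, 6.68 and 6.14). With array weights 7 of the 10 genes were called across the control ages (13.9% of genes).

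Over the 23 mucosa arrays, the genes whose signals ran most like those of a member were Emilin1 for P3h1 and Rcn3 for Pcolce (Pearson's r 0.99 each), Adamts12 for Lox, Adam19 for Loxl2, Col5a3 for Plod2 and Plod3 for P4ha3 (0.98 each), Tgfb1i1 for Plod1 (0.96), Fstl1 for Loxl1, C1h11orf24 for P4ha1 (0.95 each) and Col6a2 for Bmp1 (0.94). Among the 10 genes themselves, r ranged from 0.64 (Loxl1 with Plod2) to 0.98 (Loxl2 with P3h1). The arrays fall into 6 groups that all genes share, and the values are descriptive.

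The substrates of the enzymes also changed, and the question of whether an enzyme transcript moved as much as collagen transcripts was asked in each array. At 3 days, 7 of 10 fibril genes were higher, among them Col5a3 (3.29, SE 0.14), Col1a1 (2.30, SE 0.15), Col1a2 (1.21, SE 0.11) and Col3a1 (0.73, SE 0.08). At 14 days again 7 of 10 were higher, including Col5a2 (1.30, SE 0.14), Col1a1 (1.27, SE 0.15) and the elastic fiber gene Eln (1.11, SE 0.19), and at 60 days 0 were called, with 4 at an unadjusted p under 0.05. The lists of both times were not the same, as Eln was at -0.25 at 3 days and Col11a1 (1.31 at 3 days) at 0.12 at 14 days. The injury effect of the fibril genes was larger at 3 than at 14 days in 4 of 10 and smaller in 1 (Eln). Each member was then expressed relative to the mean of Col1a1, Col1a2 and Col3a1 in its array.

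Relative to these collagens, Plod2 rose by 1.61 more at 3 days (SE 0.24), Loxl2 by 1.34 (SE 0.22) and Lox by 1.02 (SE 0.17), with PI and control arrays apart. Loxl1 changed by -1.05 (SE 0.17), P4ha1 by -0.98 (SE 0.12), Plod1 by -0.95 (SE 0.16) and Bmp1 by -0.79 (SE 0.10), also apart. This Bmp1 value is that of 1389048_at, which rose by 0.62 at 3 days. The other Bmp1 probe set rose by 1.64 and was not set against the collagens. Whether Bmp1 would lie below them by that probe set was not tested. P4ha3 (0.33), Pcolce (0.21) and P3h1 (-0.06) overlapped with control. At 14 days Lox was above the collagens, by 0.35 (SE 0.06), Plod2 stood level at -0.03 (SE 0.12), and 6 genes were below without overlap, by -0.56 (Loxl1) to -0.94 (P4ha1). At 60 days 7 genes were below without overlap, from -0.33 (Bmp1) to -0.74 (Loxl1), and Lox (0.19), Plod2 (0.20) and Loxl2 (-0.52) overlapped with control. Adjusted over the 30 tests, 0 of these differences passed (14 had an unadjusted p under 0.05, each of 0.0357). The exact permutation test reaches no p below 0.0357 with 5 against 3 arrays and none below 0.0952 with 5 against 2, and the smallest adjusted p was 0.0765. A limma fit of all genes relative to the same collagens, added after the data were seen, called 7 of 10 genes at 3 days (97.5% of all genes), 8 at 14 days (93.4%) and 3 at 60 days (6.16%). The median gene stood at -1.40 relative to the rising collagens at 3 days, at -0.81 at 14 days and at -0.30 at 60 days. A negative value was thus the usual one at each time. The shares of all genes below or above without overlap were not counted. At 3 days the called positive values were those of Plod2 (adjusted p = 4.78e-09), Loxl2 and Lox. The size of these values depended on the collagen. In 3-day PI arrays Col1a2 read 14.20 to 14.43 and Col3a1 14.32 to 14.54, close to the highest value of any probe set (14.74), whereas Col1a1 read 13.67 to 13.99. Whether the bright probe sets understated the rise of these collagens was not tested. With Col1a1 alone as the reference, the 3-day values were 0.72 for Plod2, 0.45 for Loxl2 and 0.13 for Lox, of which those of Loxl2 and Lox overlapped with control. P4ha3 and Pcolce then turned to -0.56 and -0.68 at 3 days and Lox to -0.11 at 14 days. With Col3a1 alone Plod2 was at 2.29, Loxl2 at 2.02 and Lox at 1.70.

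**Figure D3:**
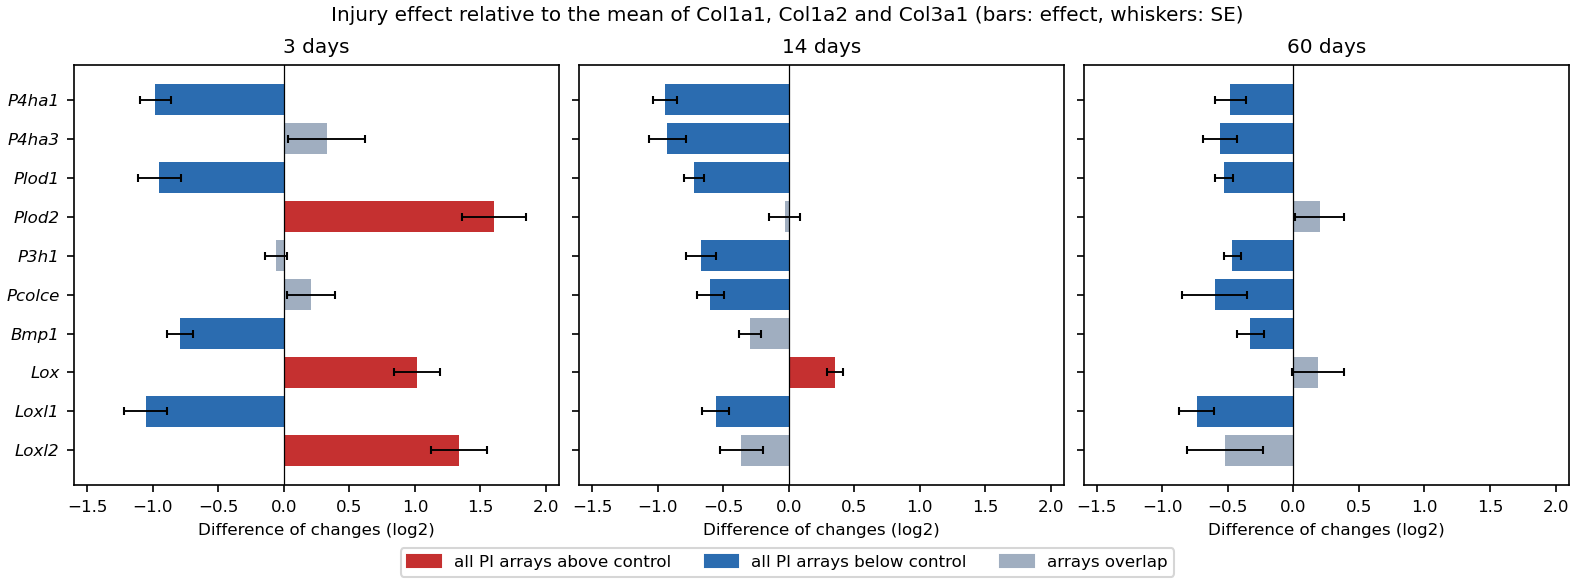
Injury effect of each gene relative to the mean of Col1a1, Col1a2 and Col3a1 in the same array (log2), at 3, 14 and 60 days; bars are PI minus control, whiskers are the SE, and colors show whether PI arrays lay all above (red), all below (blue) or among the control arrays (gray). At 3 days 3 bars are red (Plod2, Loxl2, Lox), at 14 days 1 (Lox) and at 60 days none, where 7 bars are blue. The median of all genes was -1.40, -0.81 and -0.30 at 3, 14 and 60 days, so values below the collagens were usual. The share of all genes apart in either direction was not counted.

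Other genes of collagen modification, folding and processing were counted from a list of 28, of which 20 were measured by a probe set with 1 symbol. At 3 days 10 of 20 were higher and none was lower, with a median of 0.39. The leading ones were Fkbp10 (1.59, SE 0.09), a foldase needed for telopeptide lysine hydroxylation, the chaperone Serpinh1 (1.40, SE 0.15), P3h4 (1.21, SE 0.17), Fkbp14 (1.17, SE 0.10), the collagen-binding Sparc (1.13, SE 0.13), Tmem38b (1.04, SE 0.12), the galactosyltransferase Colgalt1 (0.79, SE 0.13) and Plod3 (0.67, SE 0.09). Crtap (-0.07) and Ppib (0.07), which share the P3h1 complex, were not called. Neither were P4hb (0.08), the common beta subunit of the prolyl 4-hydroxylases, and their further alpha subunit P4ha2 (0.17, adjusted p = 0.107). At 14 days 3 of 20 were higher, Sparc (0.68, adjusted p = 0.0038), Serpinh1 (0.60, adjusted p = 0.0287) and Fkbp10 (0.36, adjusted p = 0.0223). This 14-day count was 1 with the replicate number as a block, and 1 when PI replicate 3 or 5 or control replicate 2 or 3 was left out. At 60 days limma and the lognormal-normal model called 0, with 1 at an unadjusted p under 0.05.

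**Figure D4:**
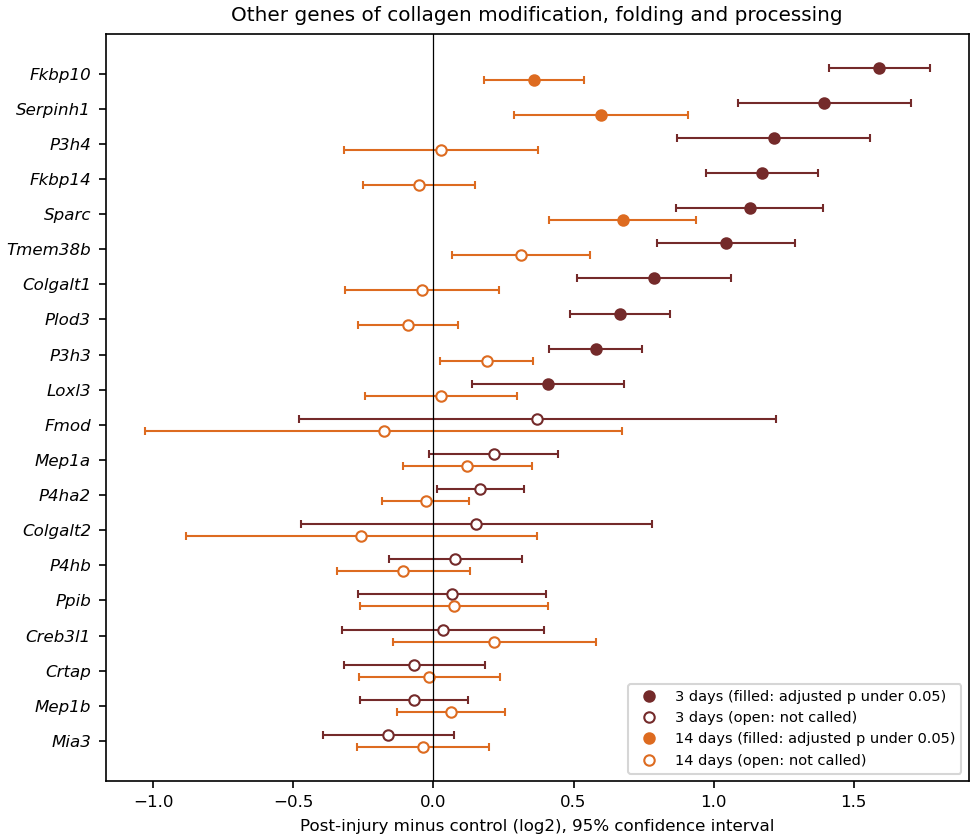
PI minus control (log2) for 20 further genes of collagen modification, folding and processing at 3 days (dark) and 14 days (orange); bars are 95% confidence intervals and filled points had an adjusted p under 0.05. At 3 days 10 points are filled, led by Fkbp10 at 1.59, and at 14 days 3 (Sparc, Serpinh1 and Fkbp10).

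Plod2, P4ha1, Lox and Loxl2 are known hypoxia-inducible genes, and a list of 16 other such targets was counted beside them. At 3 days 3 of 16 were higher, Car9 (0.75, SE 0.12), Slc2a1 (0.50, SE 0.13) and Eno1 (0.32, SE 0.09). Another 6 fell, Egln3 (-1.24, SE 0.22), Bnip3 (-0.70), Vegfa (-0.69), Egln1 (-0.52), Pdk1 (-0.50) and Ndrg1 (-0.40), and the median was -0.04. Across the array 26.5% of genes were called at 3 days and 14.5% were higher. A link between this list and the changes of Plod2, P4ha1, Lox and Loxl2 was not tested. At 14 and 60 days limma called 0 of 16, with 2 at an unadjusted p under 0.05 at either time.

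Marker lists moved with the injury effects as well. At 3 days cell division genes were higher in 5 of 5 (1.71 to 2.52), muscle regeneration genes in 4 of 4 (3.10 to 6.22), neutrophil genes in 2 of 3, macrophage genes in 1 of 5, and fibroblast markers in 3 of 5, with Col1a1 at 2.30, Thy1 at 1.23 and Lum at 0.36. The fibroblast markers Pdgfra (0.09) and Dcn (-0.14) were not called. Endothelial genes were higher in 2 of 3 and epithelial genes in 2 of 5 (Krt5 at 0.38, Krt14 at 0.42). Smooth muscle genes were higher in 3 of 5 (Acta2 at 0.84, Des at 0.73, Tagln at 1.58), and Myh11 was lower (-0.86). Skeletal muscle genes were lower in 3 of 4, Schwann cell genes in 2 of 2 and fat genes in 1 of 3, and cartilage genes were not called. The per-array mean of the fibroblast list was 12.56 to 12.74 in 3-day PI arrays and 11.78 to 12.01 in controls. The part of these lists in the changes of the 10 genes was not tested.

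Relative to the 60-day control mucosa of the same age, naive cultured fibroblasts were higher for 10 of 10 genes (62.2% of genes called, 35.9% higher). The median difference was 3.22, against 0.12 for all genes, and single differences ran from 0.93 (Bmp1, SE 0.16) to 4.56 (P4ha3, SE 0.21). Plod2 differed by 4.39 (SE 0.18) and Lox by 3.86 (SE 0.19). Plod2 read 12.57, 12.56 and 12.76 in naive cultures, above the 11.71 to 11.81 of 3-day PI mucosa. Not every culture signal exceeded injured mucosa. The other Loxl2 probe set averaged 9.19 in naive cultures and 9.59 in 3-day PI mucosa, and Bmp1 averaged 8.48 in scramble cultures and 8.82 in 3-day PI mucosa. Tissue and culture differed also in pooling and in RNA input (1.2 and 0.9 µg), which cannot be told apart from the kind of sample.

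Scar and naive fibroblasts were compared to ask whether cells from the healed wound kept another expression of these genes in culture. limma called 0 of the 10 genes (5.48% of all genes called) and the lognormal-normal model 0 (3.96% of all genes called). Of the 10, 3 had an unadjusted p under 0.05. Bmp1 was at 0.40 (SE 0.16, adjusted p = 0.182), P4ha1 at 0.26 (SE 0.10, adjusted p = 0.152), Plod2 at -0.25 (SE 0.11, adjusted p = 0.242) and P4ha3 at -0.22 (SE 0.09, adjusted p = 0.195). P4ha1 read 13.14, 12.91, 12.82 and 12.78 in scar and 12.70, 12.53 and 12.72 in naive cultures, without overlap. Lox read 13.62, 13.51, 13.46 and 13.45 in scar against 13.66, 13.65 and 13.66 in naive cultures, again without overlap but with a difference of only -0.14 (SE 0.07, adjusted p = 0.282). Groups apart were seen for 9.91% of genes upward and 8.52% downward. The other Lox probe set read 12.19, 12.22, 12.07 and 12.55 against 12.76, 12.83 and 12.71 and was called lower, by -0.51 (SE 0.11, adjusted p = 0.0332 over probe sets, of which 3.57% were called). For Loxl2 the interval of the difference ran from -0.69 to 0.64, and by its other probe set (0.38) from -0.25 to 1.00. Cell division genes were higher in scar cultures in 5 of 5 (1.25 to 2.82), and their per-array mean was 7.02 to 8.71 against 5.86 to 6.11. Smooth muscle genes were higher in 2 of 5 (Cnn1 at 1.86, Myh11 at 2.00), with 4 at an unadjusted p under 0.05, and no other marker list held a call. The part of both lists in the values above was not tested.

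**Figure D5:**
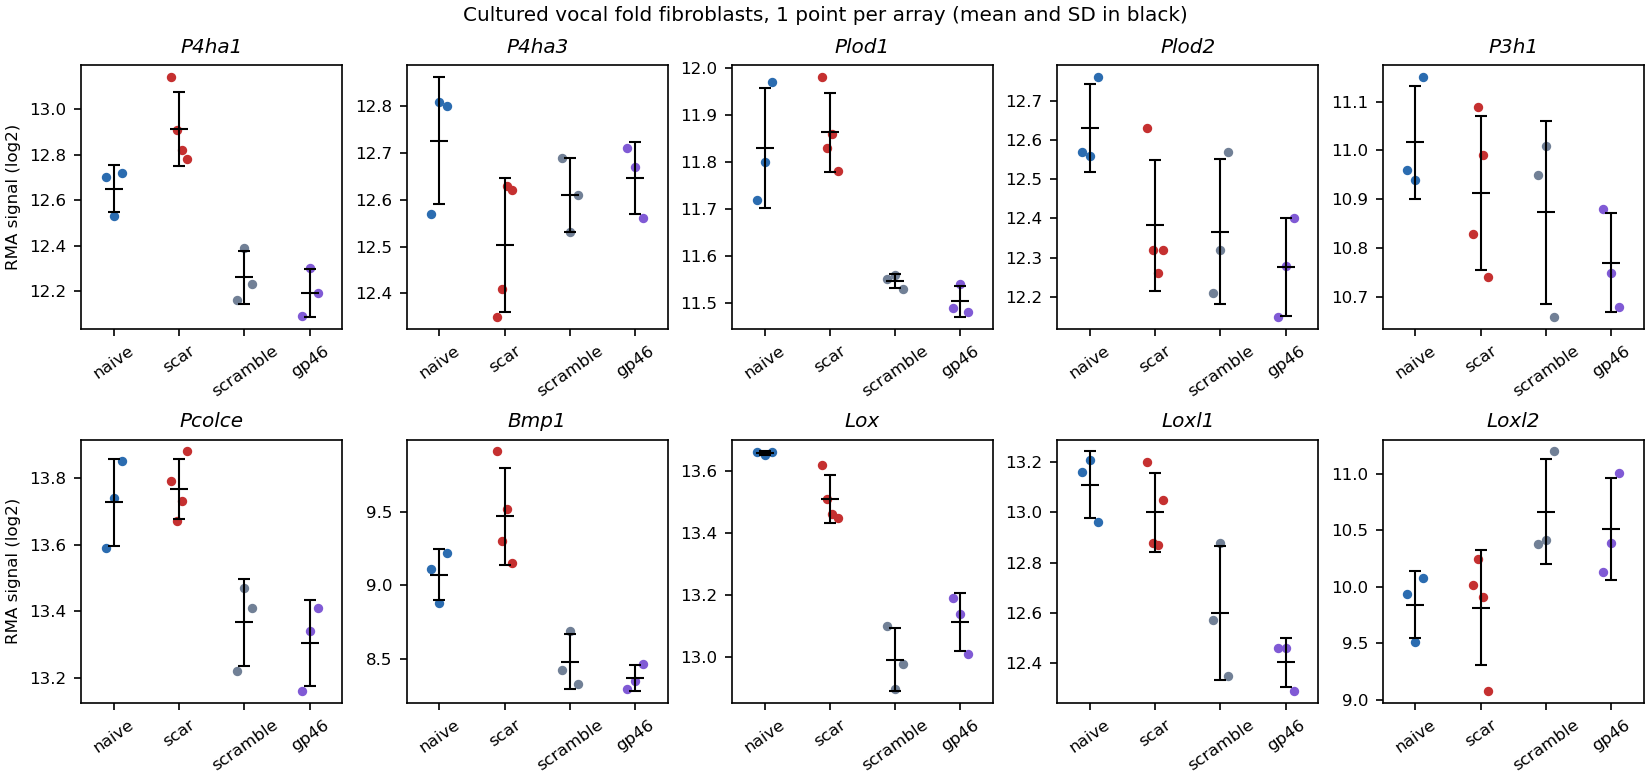
Log2 RMA signal of the 10 genes in cultured VF fibroblasts: naive (3 arrays), scar (4), scramble siRNA (3) and gp46 siRNA (3); points are cultures, black lines give the mean and SD, and the vertical scale differs between panels. Bmp1, P4ha1, Lox, Plod1 and Pcolce lie lower in both siRNA groups than in the scar group, while scramble and gp46 points overlap in each panel.

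The knockdown was checked first in its target. Serpinh1 read 12.43, 12.64 and 12.67 in the gp46 siRNA cultures and 12.98, 12.96 and 12.93 in the scramble cultures, a difference of -0.38 (SE 0.10) that was not called over all genes (limma, unadjusted p = 0.00255, adjusted p = 1.00). The groups did not overlap, as for 3.39% of all genes in this direction. Among the 10 genes limma called 0, the lognormal-normal model 0, and 0 had an unadjusted p under 0.05. Over all genes limma called 0 of 14217 (0% called) and the lognormal-normal model 7. Differences ran from -0.20 (Loxl1, SE 0.13) to 0.12 (Lox, SE 0.08), and gp46 and scramble arrays overlapped for each gene. Within the pairs of the same replicate number, Lox was higher in gp46 arrays in 3 of 3 (by 0.09, 0.24 and 0.02), and Loxl1 (-0.11, -0.42 and -0.06), Loxl2, Plod1, Plod2 and P4ha1 were lower in 3 of 3. Single differences were as small as 0.02 (Lox) and -0.02 (Plod1). The share of all genes that went 1 way in 3 of 3 pairs was not counted, so these directions have no reference. With the pair as a block limma called 0 of the 10, and the smallest adjusted p was 0.981. For Lox, Plod1, Plod2, P4ha1, P4ha3, P3h1 and Pcolce the 95% confidence intervals lay between -0.36 and 0.28. Those of Loxl1 and Bmp1 ran from -0.49 to 0.10 and from -0.49 to 0.27. The widest interval was that of Loxl2, from -0.87 to 0.56.

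Against untransfected scar cultures, scramble cultures were lower for 6 of the 10 genes and higher for 0 (30% of genes called, 13.5% lower and 16.5% higher). Bmp1 read 8.42, 8.69 and 8.33 in scramble and 9.91, 9.30, 9.52 and 9.15 in scar cultures, a difference of -0.99 (SE 0.16, adjusted p = 0.00084). P4ha1 read 12.16, 12.39 and 12.23 in scramble cultures, and its difference was -0.65 (SE 0.10, adjusted p = 0.00051). Lox was lower by -0.52 (SE 0.07, adjusted p = 0.00027), Pcolce by -0.40 (SE 0.09), Loxl1 by -0.40 (SE 0.13) and Plod1 by -0.32 (SE 0.07). The groups did not overlap in these genes other than Loxl1, a separation seen for 15.7% of genes downward and 18.6% upward. The Loxl1 call (adjusted p = 0.0309) was lost without scar replicate 1 or 4 or scramble replicate 1 or 3, at -0.28 to -0.39. Loxl2 pointed the other way, with 10.38, 10.42 and 11.20 in scramble and 10.02, 10.25, 9.91 and 9.08 in scar cultures, a difference of 0.85 (SE 0.31, adjusted p = 0.0549) that was called without scar replicate 2 (1.00), without the 30% of genes of lowest mean (adjusted p = 0.0453) and with an intensity trend in limma (adjusted p = 0.0446). No scramble array of Loxl2 fell within the scar range. Plod2 (-0.02), P3h1 (-0.04) and P4ha3 (0.11) showed no called difference.

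Other transcripts moved in the same comparison. Of the 20 further pathway genes 6 were lower (Creb3l1 at -0.87, Tmem38b at -0.43, Serpinh1 at -0.42, P3h3 at -0.34, Mia3 at -0.28 and Ppib at -0.27) and 1 was higher (P3h4 at 0.33). Of the 10 fibril genes 6 were lower, among them Col11a1 (-1.75), Eln (-1.25) and Col1a1 (-0.63). Cell division genes were higher in 5 of 5, by 2.45 to 3.46, and smooth muscle genes were lower in 4 of 5. Fibroblast genes were lower in 2 of 5, skeletal muscle genes in 1 of 4, and 1 of 3 endothelial genes was higher. Scramble cultures had been exposed to liposomes and siRNA and cultured for longer, and these steps cannot be told apart. The part of the marker lists was not tested.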

How the data were processed

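RNA was hybridized to Affymetrix rat genome arrays, 1 array per sample. The log2 values were deposited by the authors after RMA (affy package, versions not given in the sources used here), which brought all 36 arrays to one distribution (2.72 to 14.74), so values rank a transcript within its own array. Groups followed the sample labels. Of 31099 probe sets, 9831 had no gene symbol in the platform annotation and 436 had several, and 57 control probe sets were left out. A gene was read by its probe set of median mean intensity, the larger of the middle pair, as in the methods.

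Differences were tested with limma 3.58.1 (R 4.3.3), 1 fit for mucosa and 1 for fibroblasts, with Benjamini-Hochberg adjustment over 14217 genes and a threshold of 0.05. Shares of genes called refer to adjusted p values. The share of all genes at an unadjusted p under 0.05 was not counted, so counts at that threshold have no reference. The lognormal-normal model of the methods was rewritten and run as an alternative at a posterior probability above 0.95. Exact permutation tests were two-sided. Scripts were checked on simulated data. Other probe set rules, normalizations, filters, weights, blocks and left-out arrays were alternatives. The 10 genes, the gene lists and the rule for further genes (up to 8 called pathway genes per comparison, largest first) were chosen with earlier results of these data known. Same-numbered siRNA arrays deviated together (r 0.18 to 0.48), so their numbers were taken to pair them; in the other comparisons at least 1 pair was at 0.10 or below (lowest r -0.13). The number of arrays limits the precision.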

Additional observations from a re-analysis of the deposited data

Results flagged for a closer look

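Dixon's test of gap over range, which flags about 1 in 20 groups by chance, singled out an array in 4 of 52 groups of 4 or 5 arrays. In 60-day PI mucosa the fourth array read 10.96 for Lox, the others 9.97 to 10.18, and 9.05 by the other Lox probe set, the others 7.94 to 8.26. The fifth 3-day PI array read 10.10 for Loxl2, the others 9.39 to 9.56. Both belong to the arrays that deviated together. In scar fibroblasts the first culture read 12.63 for Plod2, the others 12.26 to 12.32.

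The injury effect differed between times by limma, as described above. From 3 to 14 days it declined by 2.30 (Loxl2), 2.24 (Plod2), 1.86 (P4ha3), 1.41 (Pcolce), 1.27 (Lox), 1.21 (P3h1) and 0.56 (P4ha1). From 3 to 60 days it declined by 3.00 (Loxl2), 2.55 (Plod2), 2.03 (P4ha3), 1.97 (Lox), 1.95 (Pcolce), 1.55 (P3h1), 0.83 (Loxl1), 0.72 (Plod1), 0.68 (Bmp1) and 0.64 (P4ha1).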

How the results depend on the processing

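With the replicate number as a block, Plod1 at 3 days (0.44, adjusted p = 0.0508) and Bmp1 at 14 days (0.44, 0.0792) missed the threshold, Loxl1 at 3 days (0.38) and Loxl2 at 14 days (0.60) passed it, the other pathway genes called at 14 days fell to 1, and Bmp1 at 60 days turned to 0.04 and Loxl2 in scar against naive cultures to 0.22. Pairing by sample name turned Plod1 there to -0.01. In the paired siRNA arrays the block changed no call (smallest adjusted p = 0.981). Pooled controls called 7 of the 10 genes and 5 other pathway genes at 60 days and Loxl1 at 3 days (0.50). Array weights called Loxl1 at 3 days (0.27), Loxl2 at 14 days, Plod1 between 3 and 14 days (0.27), 7 genes across control ages and 2 between 14 and 60 days, and gave 0.06 for Loxl2 in scar against naive cultures and 0.00 for Pcolce under gp46 siRNA. With these weights 13.9% of all genes were called across control ages, and the share between 14 and 60 days was not counted. The low-value filter and the intensity trend each called Loxl2 in scramble against scar cultures (0.85). The mean of the probe sets called Bmp1 between 3 and 14 days (0.62), 1 gene between 14 and 60 days (Bmp1) and 1 in scar against naive cultures (Lox, -0.32), where Loxl2 turned to 0.18. Shares of all genes called with the mean of the probe sets were not counted. The limma fit relative to collagens, chosen after seeing the data, called 7, 8 and 3 genes at 3, 14 and 60 days, where the exact test called 0. With Col1a1 alone as reference, Plod2, Loxl2 and Lox shrank to 0.72, 0.45 and 0.13 at 3 days, P4ha3 and Pcolce turned to -0.56 and -0.68 at 3 days, Lox to -0.11 at 14 and -0.05 at 60 days and Plod2 to -0.03 at 60 days, and with Col3a1 alone P3h1 turned to 0.62 at 3 days and Plod2 and Bmp1 to 0.29 and 0.02 at 14 days.

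Leaving out 1 array in turn, other pathway genes called at 14 days numbered 1 to 3. P4ha3 at 14 days ran from -0.22 to 0.03, the 3 minus 14 day effect of Loxl1 from -0.06 to 0.22, and Plod2 relative to collagens at 14 days from -0.11 to 0.04. In scar against naive cultures Loxl2 ran from -0.19 to 0.22, Plod1 from -0.02 to 0.10 and Pcolce from -0.03 to 0.10. In scramble against scar cultures Plod2 ran from -0.12 to 0.07 and P3h1 from -0.11 to 0.07. Under gp46 siRNA Loxl2 ran from -0.41 to 0.11, Plod2 from -0.17 to 0.01, P4ha3 from 0.00 to 0.08 and Pcolce from -0.14 to 0.01. None of these values was called. Without 60-day control replicate 2, Loxl1 (0.79, adjusted p = 0.0561) and P4ha1 (0.60, 0.0559) were no longer called between 3 and 60 days. The cause of these changes was not tested, and with 2 to 5 arrays a group, small differences could not be resolved.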
